A study of Mus musculus with 10 samples.

Results

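The genes described here are 10 regulators and effectors of the epithelial-mesenchymal transition (EMT), out of 57010 genes in the deposited count table. They were chosen by name, with earlier results of these data known. They are 7 transcription factors (Snai1, Snai2, Twist1, Twist2, Zeb1, Zeb2 and Prrx1) and 3 mesenchymal effectors (Vim, Cdh2 and Fn1). All 10 passed the low-count filter in both comparisons. RNA came from whole mammary tumours of untreated mice carrying MMTV-PyMT, a polyoma middle T oncogene driven in mammary epithelium. All tumours carried this transgene: 5 were labelled PyMT; RHBDL4 -/- (knockout) and 5 PyMT; RHBDL4 +/+ (wild type), each taken 5 weeks after tumour onset. RHBDL4, the product of Rhbdd1, is an intramembrane protease of the endoplasmic reticulum, and the comparison asks how its absence bears on the tumour transcriptome.

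EMT is the programme by which epithelial cells loosen their junctions and take on a migratory, mesenchymal form, in embryos and in some carcinomas. Snail, Twist and ZEB proteins bind E-box motifs and repress junction genes such as Cdh1, the gene of E-cadherin. The same factors and effectors are expressed in ordinary stromal cells, so in whole tumour RNA a level of one of them is a sum over carcinoma cells and stroma. In such bulk RNA, fewer cells of a type and less RNA per cell cannot be told apart.

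Libraries held 25.7 to 43.3 M counts. Levels are CPM (counts per M counts, with TMM scaling) on one scale over all 10 libraries. Each library has its own batch number in the labels, so batch and genotype cannot be told apart. Some library names begin with the same number (wild-type replicates 1 and 2, wild-type replicates 3 and 4, and knockout replicates 3 and 4), and what it marks is not stated. No label says that each library is from its own animal, and the p-values then cover only the spread among these tumour samples. Wild-type replicate 5 goes against its label as a mammary tumour: its luminal epithelium list (12 genes) summed to 152 CPM against 4809 to 8110 CPM in the other 9 libraries, and its skeletal muscle list (14 genes) to 150411 CPM against at most 1718 CPM. Log2 fold changes of the members are therefore given with all 10 libraries and with the 9 that leave it out. Rhbdd1 averaged 17 ± 3.4 CPM in the knockout group (SD, n = 5) and 35.2 ± 7.48 CPM in wild-type libraries (SD, n = 5), without overlap. Without TMM scaling, wild-type replicate 5 stood at 14.6 CPM of Rhbdd1, within the knockout range of 13.4 to 24.0 CPM. The log2 fold change of Rhbdd1 was -1.05 ± 0.20 (SE, edgeR quasi-likelihood adjusted p = 0.669). In the 9 libraries it was -1.14 ± 0.16 (edgeR adjusted p = 0.113).

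No member passed the test between genotypes in either comparison. edgeR called 0 of the 10 members with all 10 libraries, beside 0% of the 18577 genes tested, and 0 of 10 without wild-type replicate 5, beside 0.0105% of 19016 genes. In edgeR no member reached an unadjusted p under 0.05, where 7% of all genes did with 10 libraries (2.56% higher and 4.44% lower in knockout) and 11.6% with 9 (5.74% higher and 5.85% lower). The 2 groups overlapped for every member in both comparisons, while they did not overlap for 1.99% of all genes with 10 libraries and for 5.62% with 9. DESeq2 and limma-voom with sample quality weights also called 0 members, beside 0.269% and 0.0915% of all genes with 10 libraries and 2.28% and 0.752% with 9. With 10 libraries DESeq2 gave Prrx1 and Vim no adjusted p, so it could not call these members. With limma-voom 1 member, Cdh2, had an unadjusted p under 0.05 in each comparison. Of all genes tested, 3491 of 18577 did so with 10 libraries and 3524 of 19016 with 9. The median log2 fold change over the 10 members was -0.75 with 10 libraries and 0.18 with 9, where the median over all genes tested was -0.06 and 0.03. Of the 10 members 3 were above 0 with 10 libraries, beside 43.8% of all genes, and 7 with 9, beside 53.2%. Leaving out 1 library thus turned the sign of the members' median.

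**Figure D1:**
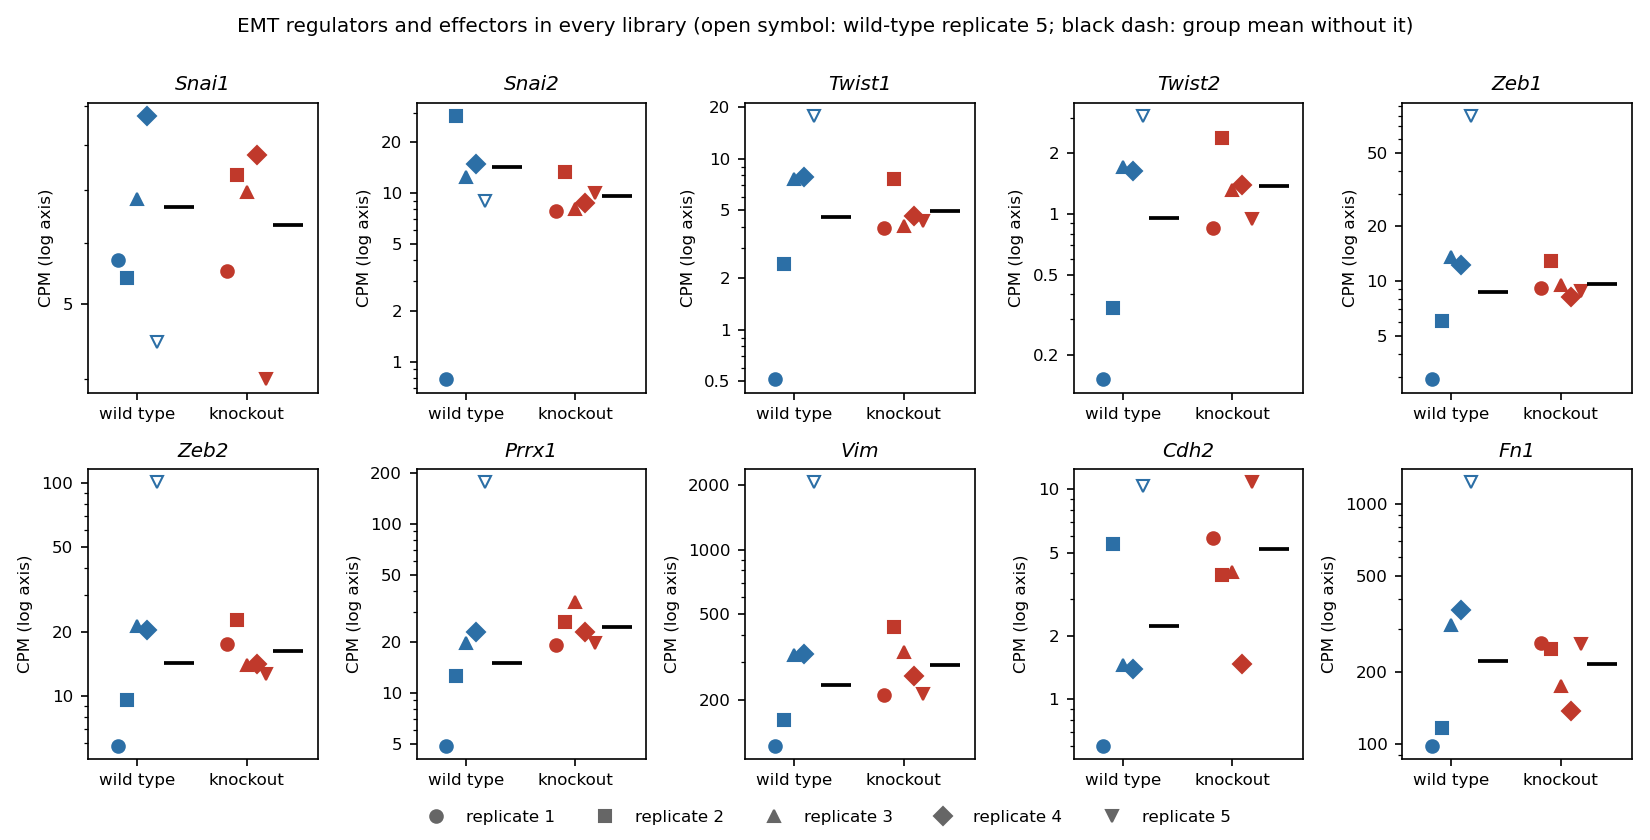
TMM-scaled CPM (log axis) of each member in every library, by genotype; marker shapes give the replicate, the open symbol is wild-type replicate 5 and the black dash is the group mean without it. Wild-type replicate 1 is the lowest of the other 9 libraries for 9 of 10 members, and the knockout libraries lie within the range of the 5 wild-type libraries except for Snai1 and Cdh2.

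The widest differences between libraries lay within the wild-type group. Wild-type replicate 1 was the lowest of the 9 libraries for 9 of the 10 members, all but Snai1. Wild-type replicate 5 was the highest of 10 for 7 members (Twist1, Twist2, Zeb1, Zeb2, Prrx1, Vim and Fn1). Without TMM scaling, which raises that library's values by its low factor of 0.588, it was still highest for 6 of them, all but Twist2. Over the 4 other wild-type libraries, the SD of log2 CPM was larger than over the 5 knockout libraries for 9 of 10 members, against 37.0% of 15196 genes with a mean of at least 1 CPM. The median SD of the members was 1.01 in these wild-type libraries and 0.39 in knockout libraries, and over all those genes it was 0.22 and 0.30. With wild-type replicates 2 to 4 alone the members' median SD was 0.64, and again 9 of 10 were larger than in knockout, against 23.3% of all genes. Without replicate 5 the wild-type libraries carry 2 leading numbers. Over the members, the higher library was a median of 1.08 times the lower for wild-type replicates 3 and 4. For wild-type replicates 1 and 2 it was 2.18 times. These spreads are a description of the libraries and were not tested.

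Zeb1 and Zeb2 encode zinc-finger and homeodomain repressors of epithelial genes. Zeb1 stood at 9.11, 12.9, 9.47, 8.13 and 8.79 CPM in knockout replicates 1 to 5 and at 2.90, 6.08, 13.6, 12.2 and 79.8 CPM in wild-type replicates 1 to 5. The knockout values lay inside the wild-type range, with wild-type replicate 5 far above all others and replicates 1 and 2 below all others. The log2 fold change of Zeb1 was -1.24 ± 0.77 (SE, edgeR adjusted p = 0.680) with 10 libraries and 0.17 ± 0.40 (adjusted p = 0.898) with 9. Leaving wild-type replicate 1 out of the 9 as well gave -0.12 for Zeb1, -0.07 for Zeb2 and -0.26 for Twist1. Zeb2, again lowest in wild-type replicates 1 and 2 and highest in replicate 5, stood at 17.5, 22.7, 14, 14.2 and 12.7 CPM in knockout, against 5.85, 9.62, 21.4, 20.4 and 101 CPM in wild-type libraries. Its log2 fold change was -0.96 ± 0.68 (edgeR adjusted p = 0.694) with 10 libraries and 0.19 ± 0.37 (adjusted p = 0.869) with 9. Zeb2os, an RNA antisense to Zeb2, took at most 20 counts in a library. Whether antisense reads were counted in Zeb2 was not tested, as the strand setting of the counting is not given.

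Twist1 and Twist2 encode closely related basic helix-loop-helix factors of mesoderm and mesenchyme. Twist1 stood at 3.94, 7.63, 4.06, 4.61 and 4.35 CPM in knockout and at 0.513, 2.41, 7.60, 7.79 and 17.8 CPM in wild-type libraries. Wild-type replicates 1 and 2 were below every knockout library and the other 3 wild-type libraries were near or above the highest of them. The log2 fold change of Twist1 was -0.55 ± 0.70 (edgeR adjusted p = 0.814) with 10 libraries and 0.12 ± 0.63 (adjusted p = 0.957) with 9. Twist2 had the fewest reads of the members, 5 to 80 counts per library, and stood at 0.853, 2.39, 1.31, 1.39 and 0.946 CPM in knockout, against 0.151, 0.340, 1.72, 1.64 and 3.07 CPM in wild-type libraries. Its log2 fold change was 0.01 ± 0.68 (edgeR adjusted p = 0.996) with 10 libraries and 0.52 ± 0.66 (adjusted p = 0.783) with 9.

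Prrx1 encodes a paired-related homeobox factor of limb and connective tissue mesenchyme. It stood at 19.1, 26.1, 34.4, 23.0 and 19.6 CPM in knockout and at 4.86, 12.5, 19.7, 22.8 and 176 CPM in wild-type libraries. Without wild-type replicate 5 it had the smallest unadjusted p of the members, with means of 24.4 ± 6.26 against 15 ± 8.02 CPM (SD, n = 5 and 4). Its log2 fold change was then 0.72 ± 0.39 (edgeR adjusted p = 0.513), and the 2 highest wild-type libraries lay within the knockout range. With 10 libraries the sign was the opposite, at -0.94 ± 0.83 (edgeR adjusted p = 0.742). Leaving out wild-type replicate 1 from the 9 brought the difference to 0.42 (edgeR adjusted p = 0.577).

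Snai2, also called Slug, is a zinc-finger repressor that in the mammary gland marks basal and myoepithelial cells. It stood at 7.81, 13.4, 8.09, 8.71 and 10.0 CPM in knockout and at 0.784, 28.7, 12.5, 14.8 and 8.94 CPM in wild-type libraries. The range within wild type spanned both ends, with the highest library 36.6 times the lowest, and these 2 libraries, replicates 1 and 2, share a leading number. The log2 fold change of Snai2 was -0.45 ± 0.65 (edgeR adjusted p = 0.835) with 10 libraries and -0.55 ± 0.68 (adjusted p = 0.780) with 9. Of the 9, leaving out wild-type replicate 1 gave -0.94 (edgeR adjusted p = 0.349) and leaving out replicate 2 gave 0.04, so both the size and the sign rested on these libraries. Unlike Zeb1 and Twist1, Snai2 in wild-type replicate 5 lay within the range of the other libraries.

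Snai1, or Snail, is the zinc-finger repressor best known for silencing E-cadherin. It stood at 5.51, 7.32, 6.97, 7.77 and 4.00 CPM in knockout and at 5.70, 5.40, 6.82, 8.73 and 4.47 CPM in wild-type libraries. No group stood apart, and wild-type replicate 5 was among the lower libraries. Over wild-type replicates 1 to 4 the highest was 1.62 times the lowest, against 2.69 to 36.6 times for the other 9 members. The log2 fold change of Snai1 was 0.02 ± 0.26 (edgeR adjusted p = 0.986) with 10 libraries and -0.06 ± 0.25 (adjusted p = 0.943) with 9.

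The sequence before 3 of these genes is shown because Snai1 varied little between libraries while Twist1 and Prrx1 were lowest and highest in the libraries lowest and highest in fibroblast markers. Each is the 250 bases before the gene's start in RefSeq's GRCm38.p6 annotation, while the counts were made on GRCm39, on the gene's own strand, with the E-box of Snail and ZEB proteins (CAGGTG, or CACCTG on the other strand) in capitals. Snai1 lies at chr2:167537945-167538194 (+), Twist1 at chr12:33957421-33957670 (+) and Prrx1 at chr1:163313651-163313900 (-).
Snai1: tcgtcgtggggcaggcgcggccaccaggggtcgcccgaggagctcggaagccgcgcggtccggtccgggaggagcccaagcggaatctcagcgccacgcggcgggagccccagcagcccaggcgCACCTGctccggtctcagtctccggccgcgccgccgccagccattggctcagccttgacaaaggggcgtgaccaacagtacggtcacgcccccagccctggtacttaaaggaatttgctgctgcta
Twist1: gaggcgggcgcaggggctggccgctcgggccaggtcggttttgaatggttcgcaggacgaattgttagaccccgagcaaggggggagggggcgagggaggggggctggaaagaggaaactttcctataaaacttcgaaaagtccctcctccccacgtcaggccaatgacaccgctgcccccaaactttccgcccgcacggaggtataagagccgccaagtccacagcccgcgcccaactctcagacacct
Prrx1: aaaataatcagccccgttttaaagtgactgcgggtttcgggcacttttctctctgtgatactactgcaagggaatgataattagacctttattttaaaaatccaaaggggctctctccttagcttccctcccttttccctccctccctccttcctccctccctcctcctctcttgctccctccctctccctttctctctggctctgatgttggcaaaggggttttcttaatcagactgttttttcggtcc
The table of promoters held 6 of the 10 members (Snai1, Twist1, Twist2, Zeb2, Prrx1 and Vim). Of these, Snai1 alone had this motif in that window, 126 bases before its start, and 17.2% of all 32851 promoters held it. This match is a description of the letters.

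The 3 effectors are structural proteins of mesenchymal cells. Vim encodes vimentin, the intermediate filament of fibroblasts, endothelium and leukocytes. Vim stood at 210, 434, 334, 257 and 212 CPM in knockout and at 122, 161, 323, 328 and 2063 CPM in wild-type libraries. Again wild-type replicates 1 and 2 were lowest and replicate 5 highest of all 10. The log2 fold change of Vim was -1.05 ± 0.73 (edgeR adjusted p = 0.693) with 10 libraries and 0.32 ± 0.34 (adjusted p = 0.736) with 9.

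Fn1 encodes fibronectin, a glycoprotein of the extracellular matrix. It stood at 263, 248, 174, 137 and 260 CPM in knockout and at 98.2, 116, 312, 362 and 1230 CPM in wild-type libraries. All 5 knockout values fell between wild-type replicates 2 and 3. The log2 fold change of Fn1 was -0.97 ± 0.63 (edgeR adjusted p = 0.684) with 10 libraries and -0.03 ± 0.40 (adjusted p = 0.984) with 9.

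Cdh2 encodes N-cadherin, the cadherin of mesenchymal and neural cells. It stood at 5.89, 3.91, 4.03, 1.48 and 10.8 CPM in knockout and at 0.603, 5.52, 1.46, 1.39 and 10.4 CPM in wild-type libraries. Both groups were scattered, and the highest knockout library was 7.29 times the lowest, the widest knockout range of the 10 members. Its log2 fold change was 0.44 ± 0.78 (edgeR adjusted p = 0.866) with 10 libraries and 1.24 ± 0.70 (adjusted p = 0.523) with 9, the largest difference of the members in size there and within the spread between libraries. By limma-voom with sample quality weights it was 1.78 and 1.81 (adjusted p = 0.101 and 0.108). Further libraries left out of the 9 moved the edgeR value between 0.79, without knockout replicate 5, and 2.18, without wild-type replicate 2. Leaving knockout replicate 5 out of the 10 libraries gave -0.00098.

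**Figure D2:**
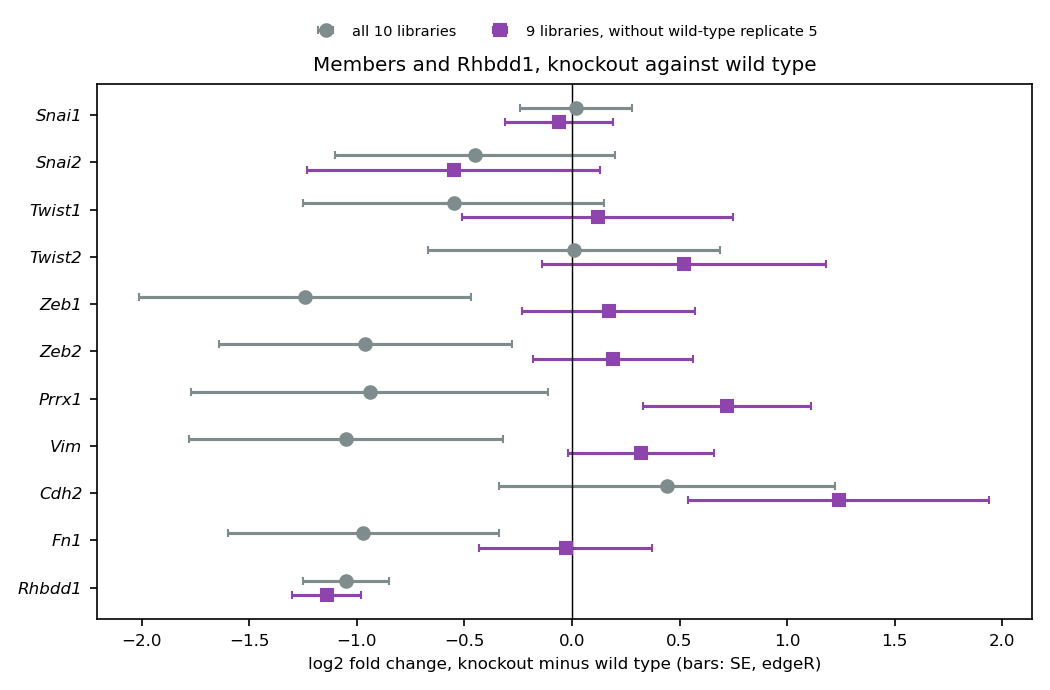
log2 fold change (knockout minus wild type) of the 10 members and Rhbdd1 with its SE from edgeR, with all 10 libraries (grey circles) and without wild-type replicate 5 (purple squares). Zeb1, Zeb2, Prrx1, Vim and Fn1 lie at or below -0.94 with 10 libraries and between -0.03 and 0.72 with 9, and Rhbdd1 stays near -1.1.

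Per length, Vim was the most abundant member in the 9 libraries, at 55.8 ± 20.8 CPM per kb of exon (SD, n = 9; exon lengths from GENCODE M21 on GRCm38), followed by Fn1 at 18.7 ± 7.85. Vim was above Fn1 in 9 of 9 libraries and Fn1 above Snai2 in 8. Among the transcription factors Snai2 (5.76 ± 3.76), Snai1 (3.99 ± 0.89) and Twist1 (2.93 ± 1.54 CPM per kb) did not differ beyond their spread, each above the next in 6 of 9 libraries. Prrx1 stood at 1.83 ± 0.749 CPM per kb, below Twist1 in 7 of 9 libraries and above Zeb1 (0.900 ± 0.332) in 9 of 9. Zeb2 (0.771 ± 0.283), Cdh2 (0.483 ± 0.399) and Twist2 (0.375 ± 0.221 CPM per kb) were lowest, and Cdh2 was above Twist2 in 5 of 9 libraries.

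Fibroblast and endothelial markers were lowest and highest in the same libraries as most members. The fibroblast list (16 genes, collagens and matrix proteoglycans among them) summed to 4532, 6885, 4158, 3778 and 7351 CPM in knockout and to 282, 1636, 6144, 5686 and 15916 CPM in wild-type libraries. Wild-type replicates 1 and 2 were thus the lowest and replicate 5 the highest of 10, as for Zeb1, Zeb2, Twist1, Prrx1, Vim and Fn1. In wild-type replicate 1, Dcn (decorin) stood at 0.483 CPM and Lum (lumican) at 0.151 CPM, against at least 77.3 and 22.9 CPM elsewhere, and no gene of the list was at 0. The endothelial list (12 genes) ran from 184 to 346 CPM in knockout. In wild-type replicates 1 to 5 it stood at 84.7, 168, 256, 264 and 1142 CPM. Its 2 lowest libraries and its highest were thus the same as those of the fibroblast list. The macrophage list (12 genes) ran from 390 to 797 CPM in knockout and 346 to 808 CPM in wild-type replicates 1 to 4, with 1933 CPM in replicate 5. It was not lowest in wild-type replicate 1, where it stood at 481 CPM, above 346 CPM in replicate 2. No gene of either list was at 0 in any library. The share of these cells in the members' differences was not tested.

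Zeb1 and Vim did not scale with the fibroblast list one to one. Per 1000 CPM of that list, Zeb1 stood at 1.20 to 2.28 CPM in knockout libraries and at 10.3, 3.71, 2.22, 2.14 and 5.01 CPM in wild-type replicates 1 to 5. Twist1 varied least on this ratio, at 0.592 to 1.22 CPM in knockout and 1.12 to 1.82 CPM in wild-type libraries. Vim stood at 28.8 to 80.4 CPM in knockout and at 432, 98.6, 52.6, 57.7 and 130 CPM in wild-type libraries on the same ratio.

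**Figure D3:**
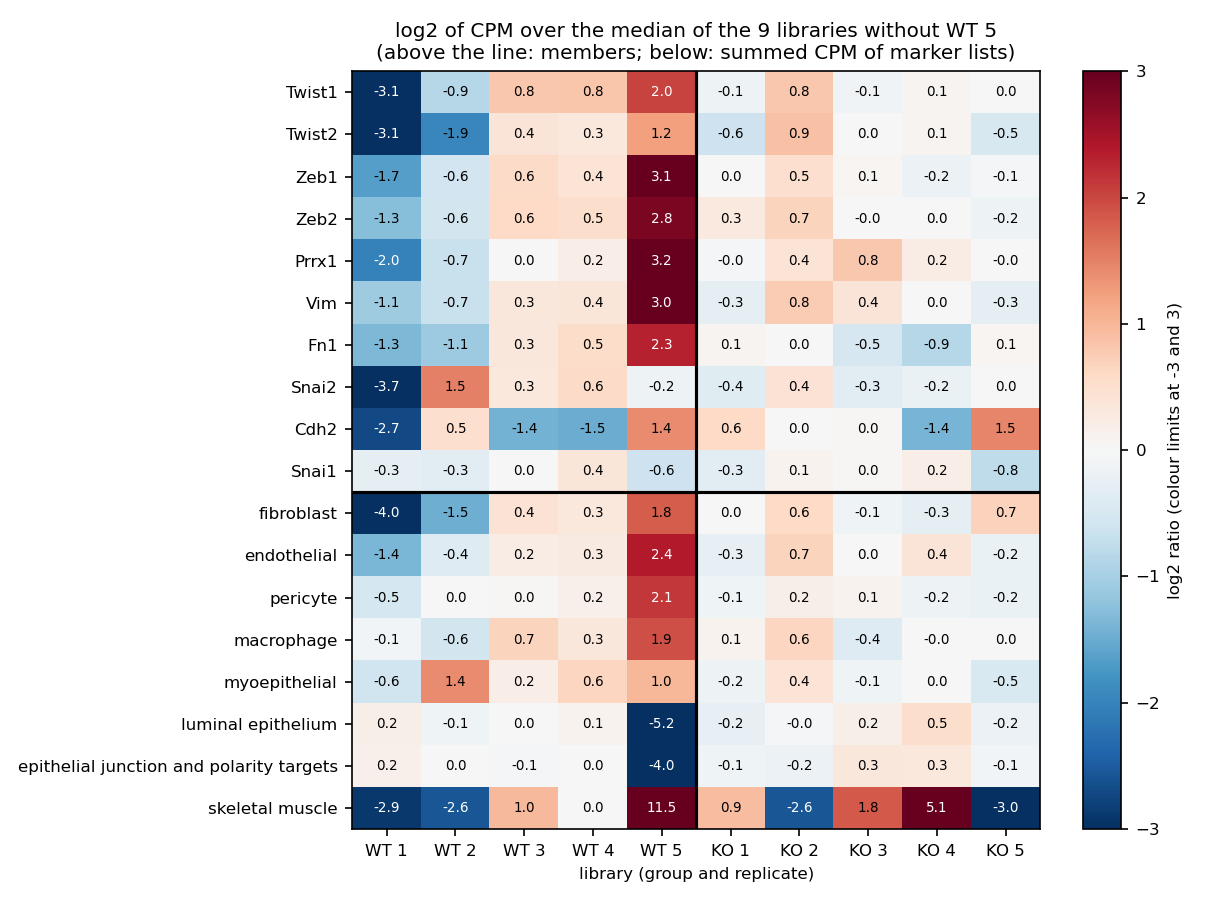
log2 ratio of each library's CPM to the median of the 9 libraries without wild-type replicate 5 (WT 5), for the members (upper rows) and the summed CPM of marker lists (lower rows); colours stop at -3 and 3, the printed numbers do not. Twist1, Twist2, Zeb1, Zeb2, Prrx1, Vim and Fn1 are blue in wild-type replicates 1 and 2 and red in replicate 5, as are the fibroblast and endothelial rows, while Snai1 stays near 0.

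The genes whose log2 CPM was most like each member's over the 9 libraries differed between members. These likenesses are the highest of 15195 genes ranked on 9 points that share library and depth, so they describe these libraries and carry no test. Zeb1 was most like Serpinb1a (Pearson's r = 0.99, Spearman's rho = 0.95), Twist1 (r = 0.99, rho = 0.78) and Cthrc1, a secreted collagen-associated protein (r = 0.98, rho = 0.87). Zeb2 was most like Zeb1 (r = 0.97, rho = 0.90), Cd83 and Tnfaip6. Twist1 was most like Fam171a1, the lysyl oxidase Loxl1 and AW551984, each at r = 0.99. Twist2 was most like Crispld1 and the dermatopontin gene Dpt (r = 0.99 and rho = 1.0 for both) and Kif13b. Of the 16 fibroblast list genes, 7 were among the 100 genes most like Zeb1, 6 for Zeb2, 6 for Twist1 and 3 for Twist2. Of the 12 endothelial list genes, 2 were among them for Twist2, 1 for Zeb2 and 0 for Zeb1 and Twist1. Of the 12 macrophage list genes, 1 was among them for each of Zeb1, Zeb2 and Twist1 and 0 for Twist2. Without the 2 libraries farthest from the median, wild-type replicates 1 and 2, Zeb1 and Twist1 had r = 0.92.

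Vim was most like Twist2 (r = 0.96), the endothelial sialomucin Emcn (r = 0.96, rho = 0.97) and the basement membrane collagen Col4a2 (r = 0.95). Of the 12 endothelial list genes 5 were among its 100 nearest, as were 4 of the 16 fibroblast genes. Prrx1 was most like Layn (r = 0.98, rho = 1.0), Dnajb4 and Pdgfrl, with 1 fibroblast list gene among its 100 nearest. Prrx1 and Twist1 had r = 0.88 and rho = 0.67 over 9 libraries. Their r was -0.08 without wild-type replicates 1 and 2, the farthest for Twist1, and 0.82 without knockout replicate 3 and wild-type replicate 1, the farthest for Prrx1, so it depended on which libraries were left out. Fn1 was most like Zfp804a, Bicd1 and the integrin Itga10 (r = 0.97, 0.96 and 0.96), with 1 fibroblast list gene among its 100 nearest.

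Snai2 was most like 3 genes of basal or surface epithelium: the basal keratin Krt5 (r = 0.99, rho = 0.88), the hemidesmosome collagen Col17a1 (r = 0.97, rho = 0.75) and the sodium channel subunit Scnn1g (r = 0.97, rho = 0.90). Krt5 stood at 0.513 CPM in wild-type replicate 1 and 260 CPM in replicate 2, the same libraries in which Snai2 was lowest and highest. Without these 2 libraries Snai2 and Krt5 had r = 0.85, and Snai2 and Col17a1 had 0.47. Of the 10 myoepithelial list genes 1 was among the 100 nearest to Snai2, as were 1 fibroblast and 1 endothelial list gene. The myoepithelial list (10 genes) ran from 222 to 404 CPM in knockout libraries and stood at 203, 821, 348, 477 and 611 CPM in wild-type replicates 1 to 5, with no gene at 0. In wild-type replicate 5 Krt5 stood at 2.14 CPM while Snai2 stood at 8.94 CPM, so the pair did not go together there.

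Snai1 and Cdh2 had none of the 16 fibroblast genes among their 100 nearest. Snai1 was most like Zc2hc1a (r = 0.95, rho = 0.93), the chemokine Ccl2 (r = 0.93, rho = 0.88) and a gene listed as AC111023.1 (r = 0.93). Cdh2 was most like Safb (r = 0.96), Ehbp1 and Zfp2 (r = 0.95 each). Snai1 and Cdh2 had r = -0.58 with each other, and Snai1 and Snai2, the 2 Snail paralogs, had r = 0.14.

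**Figure D4:**
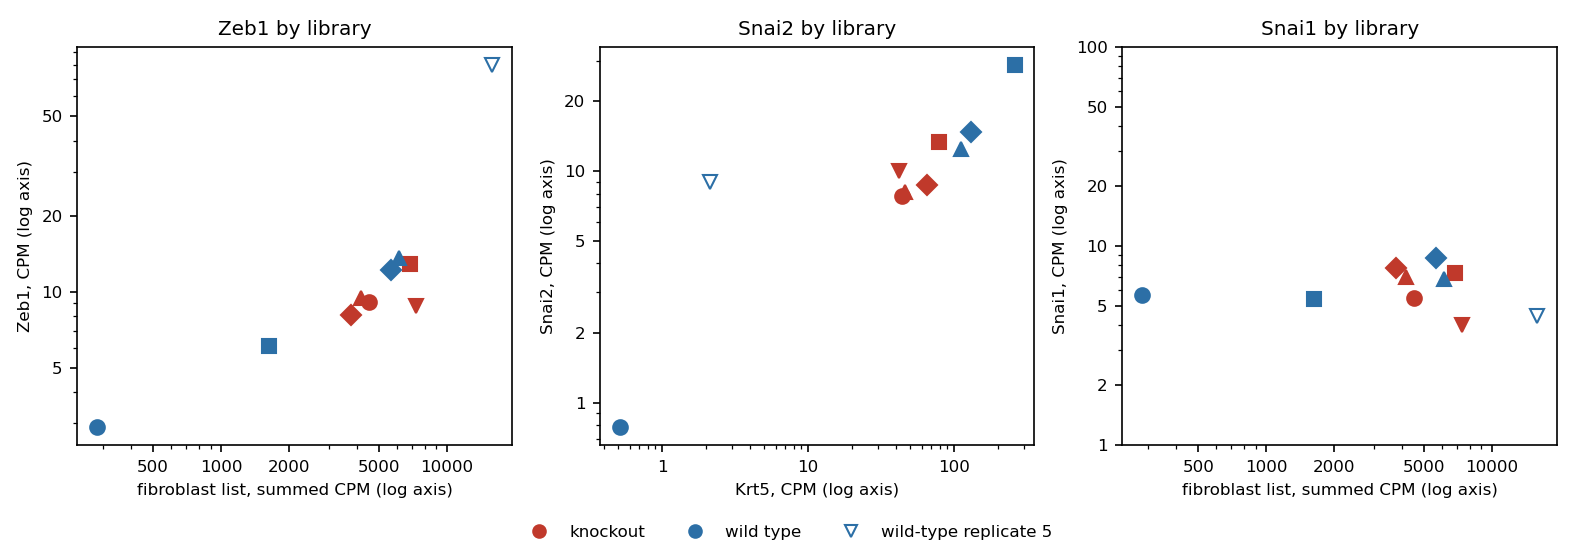
CPM of Zeb1 against the summed CPM of the fibroblast list, of Snai2 against Krt5 and of Snai1 against the fibroblast list (all axes log), 1 point per library with shapes by replicate number (circle 1, square 2, upward triangle 3, diamond 4, downward triangle 5). Zeb1 goes from 2.90 to 79.8 CPM as the list goes from 282 to 15916 CPM, Snai2 goes from 0.784 to 28.7 CPM with Krt5 except in wild-type replicate 5, and Snai1 stays between 4.00 and 8.73 CPM.

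The rest of the EMT programme was looked at through 5 lists with 72 genes, of which 70 were tested. edgeR called 0 of these 70 in either direction in both comparisons, with 3 at an unadjusted p under 0.05 with 10 libraries (all higher in knockout) and 3 with 9 (2 higher, 1 lower). Of all genes tested, 7% had such a p with 10 libraries and 11.6% with 9. Of the inputs, the list of TGF-beta ligands, receptors and Smad genes (12 tested) had a median log2 fold change of 0.05 with 9 libraries and 0.01 with 10. The CPM and adjusted p of single pathway genes below are those with 9 libraries. Tgfb2, a ligand, stood at 74.3 ± 21.2 against 102 ± 31.5 CPM (SD, n = 5 and 4; edgeR adjusted p = 0.509), and Tgfbr2, the ligand-binding receptor, at 161 ± 11.9 against 127 ± 42.9 CPM (adjusted p = 0.550). Tgfbr3, the co-receptor betaglycan, and Tgfbr1 had log2 fold changes of 0.32 and 0.12. With 10 libraries Tgfb2 was at -0.25, Tgfbr2 at -0.11, Tgfbr3 at -0.21 and Tgfbr1 at 0.13, so both Tgfbr2 and Tgfbr3 took the other sign.

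Other EMT-linked transcription factors (14 of 16 tested) had a median of -0.03 with 9 libraries and -0.15 with 10. Wwtr1, which encodes the Hippo pathway coactivator TAZ, averaged 138 ± 33.2 CPM in knockout against 106 ± 10.3 CPM in wild-type libraries. The groups did not overlap, as for 5.62% of all genes with 9 libraries. The log2 fold change of Wwtr1 was 0.40 ± 0.16 (SE, edgeR adjusted p = 0.4). Yap1, the paralog of Wwtr1, averaged 164 ± 14.4 CPM in knockout, against 197 ± 25.5 CPM in wild-type libraries (log2 fold change -0.25 ± 0.11, edgeR adjusted p = 0.421). Runx2, a skeletal factor, stood at 22.9 ± 10.0 against 15.3 ± 2.07 CPM, and Foxq1, a forkhead factor, at 1.67 ± 0.781 against 4.00 ± 5.44 CPM. With 10 libraries Wwtr1, Yap1, Runx2 and Foxq1 kept their signs, at 0.39, -0.16, 0.82 and -0.98 (edgeR adjusted p = 0.669, 0.77, 0.669 and 0.746).

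Genes that hold the epithelial state had list medians of -0.13 and 0.03 in the 9 libraries, beside 0.03 over all genes tested. The list of epithelial transcription and splicing factors (12 tested) had the median of -0.13, with 4 above and 8 below 0. With 10 libraries its median was 0.13, with 7 above and 5 below 0. The smallest p of this list belonged to Grhl3, a grainyhead factor of surface epithelium. Grhl3 stood at 2.80 ± 2.76 against 8.05 ± 6.19 CPM (log2 fold change -1.5, edgeR adjusted p = 0.449). Elf3, Klf5 and Ovol1 had log2 fold changes of -0.78, -0.40 and -0.58. With 10 libraries Grhl3, Elf3, Klf5 and Ovol1 were at -1.21, -0.48, -0.14 and -0.29. The 16 junction and polarity genes that EMT factors can repress had a median of 0.03, with 9 above and 7 below 0. Epcam, an epithelial adhesion protein, stood at 1303 ± 172 against 1158 ± 86.5 CPM and Llgl2, a polarity protein, at 69.8 ± 16.2 against 57.6 ± 6.79 CPM (edgeR adjusted p = 0.553 and 0.527). Marveld3, of tight junctions, and Rab25 had log2 fold changes of -0.22 and -0.19. With 10 libraries all 16 were above 0, with a median of 0.33, and Marveld3 and Rab25 took the other sign at 0.08 and 0.11, with Epcam at 0.48 and Llgl2 at 0.53. In that fit wild-type replicate 5 summed to 224 CPM on this list, where the other 9 libraries held 3183 to 4514 CPM.

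Other mesenchymal effectors (16 tested) had a median of 0.47 with 9 libraries and 13 above 0, where the fibroblast list had a median of 0.44 with 14 of 16 above 0, the skeletal muscle list one of 3.36 (11 genes tested) and the adipocyte list one of 2.62. With 10 libraries these medians were -0.03 for the effectors (8 of 16 above 0), -0.67 for the fibroblast list (2 of 16 above 0), -6.14 for skeletal muscle and -1.55 for adipocytes. The members' own median with 9 libraries was 0.18, with 7 of 10 above 0, beside 53.2% of all genes. The skeletal muscle list summed to 97.8, 8.81, 186, 1718 and 6.49 CPM in knockout replicates 1 to 5. Wild-type replicates 1 to 4 held 6.97 to 102 CPM of it. The adipocyte list summed to 187, 2353, 359, 2493 and 229 CPM in knockout and to 186 to 536 CPM in those wild-type libraries. The highest sums were thus those of knockout replicate 4 for muscle and of replicates 2 and 4 for fat. The part of muscle, fat and fibroblast RNA in these differences was not tested. Spock1, a secreted proteoglycan, stood at 0.585 ± 0.346 against 0.229 ± 0.0802 CPM (edgeR adjusted p = 0.389). Mmp14, a membrane-bound metalloproteinase, stood at 154 ± 11 against 108 ± 44.5 CPM and Itga5, a fibronectin receptor subunit, at 23 ± 5.6 against 17.2 ± 5.13 CPM (edgeR adjusted p = 0.472 and 0.528). With 10 libraries the log2 fold change of Spock1 was 1.35 and that of Mmp14 0.51, near their values of 1.33 and 0.52 with 9, while Itga5 turned from 0.43 to -0.36.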

How the data were processed

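The labels describe poly(A) RNA from 10 whole mammary tumours, sequenced from stranded libraries. The authors deposited raw read counts per Ensembl gene, 1 column per library. FastQC, STAR, featureCounts, DESeq2 and the build GRCm39 are named, per the submitters' processing notes. Not given in the sources used here: their versions, the annotation release and the strand setting of the counting. Symbols were matched for 52029 of 57010 genes, and 0 count columns lacked a sample. Replicates are numbered in accession order. Library totals of 25.7 to 43.3 M counts gave Twist2 5 to 80 counts per library, and wild-type replicate 1 held 17 counts of Twist1, 20 of Cdh2 and 26 of Snai2, so these levels are the least precise.

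Knockout was compared with wild type by edgeR 4.0.16 in R 4.3.3: filterByExpr, TMM factors, a robust quasi-likelihood fit, and p-values adjusted by Benjamini-Hochberg over all genes tested (threshold 0.05). The SE is the size of the log2 fold change over the square root of F. Alternatives were RLE scaling, unscaled totals, DESeq2 1.42.0, limma-voom (limma 3.58.1) using quality weights per sample, other low-count filters (none, or at least 10 counts in every library), the leading number of library names as a summed unit or random block, and leaving out each library. The fit was tested on simulated counts. Gene lists are described by counts and medians. Likeness is Pearson's r of log2 CPM (prior count 2) among genes with a mean of at least 1 CPM. Genes named are the members, Rhbdd1, the 4 smallest p per EMT list with 9 libraries (1 of them is not reported here), the 3 genes most like each member (Gm, Rik and pseudogene names left out), and cell type markers on which a result turns. Members, lists and the removal of wild-type replicate 5 were chosen with earlier results of these data known.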

Additional observations from a re-analysis of the deposited data

Results flagged for a closer look

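Within a genotype, 7 values lay far from the other libraries of their group by Dixon's test, out of 33 groups tested, and chance alone flags about 1 in 20 groups. In wild type the highest value was that of replicate 5 each time: Zeb1 at 79.8 CPM, Zeb2 at 101 CPM, Prrx1 at 176 CPM, Vim at 2063 CPM and Fn1 at 1230 CPM. These 5 values come from 1 library, the one poor in luminal and rich in muscle genes. In knockout it was replicate 2, with Twist1 at 7.63 CPM and Zeb1 at 12.9 CPM, both within the range of the wild-type libraries.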

How the results depend on the processing

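No member was called under any alternative that gave it an adjusted p. DESeq2 with 10 libraries gave none for Prrx1 and Vim. The filter of at least 10 counts in every library left Twist2 untested. Several members' log2 fold changes took the other sign in some alternatives, Prrx1 (-0.94), Twist1 (-0.55) and Snai2 (-0.45) with 10 libraries among them. With 10 libraries, Twist2 was at -0.01 with RLE scaling, -0.02 by DESeq2, -0.10 by limma-voom and -0.23 with sums per leading number. By limma-voom Snai1 was at -0.38 and Prrx1 at 0.22, and Zeb1 went from -1.24 to -0.22, Zeb2 from -0.96 to -0.17, Vim from -1.05 to -0.16 and Fn1 from -0.97 to -0.26. With the leading number as a random block (no replicate block across genotypes), Snai1 was at -0.02, Snai2, Twist1 and Prrx1 at 0.04 each, Zeb1 at -0.36, Zeb2 at -0.25, Vim at -0.67 and Fn1 at -0.62. With 9 libraries, limma-voom gave Twist1 -0.32, Twist2 -0.08, Zeb1 -0.18, Zeb2 -0.14 and Vim -0.13, sums per leading number gave Fn1 0.08, and the random block gave Snai2 0.12 and Fn1 0.21. Genes called over the whole table went from 0 to 50 by DESeq2 and 17 by limma-voom with 10 libraries. With 9 they went from 2 to 433 by DESeq2, 143 by limma-voom, 1 with unscaled totals, and 0 with sums or the random block. The causes were not tested. Rhbdd1 passed the threshold by DESeq2 (-1.06 and -1.14, adjusted p = 0.000277 and 7.56e-07) and by limma-voom (-0.95 and -0.94, adjusted p = 0.0359 and 0.0253).

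Leaving out 1 library at a time, log2 fold changes with 10 libraries ranged from -0.07 to 0.17 for Snai1, -0.76 to 0.05 for Snai2, -0.85 to 0.12 for Twist1, -0.28 to 0.52 for Twist2, -1.52 to 0.17 for Zeb1, -1.22 to 0.19 for Zeb2, -1.23 to 0.72 for Prrx1, -1.31 to 0.32 for Vim, -0.00098 to 1.24 for Cdh2 and -1.22 to -0.03 for Fn1, with 0 to 2 genes called. The upper ends of Twist1, Twist2, Zeb1, Zeb2, Prrx1, Vim, Cdh2 and Fn1 are those without wild-type replicate 5. With 9 libraries they ranged from -0.16 to 0.10 for Snai1, -0.94 to 0.04 for Snai2, -0.26 to 0.50 for Twist1, -0.12 to 0.47 for Zeb1, -0.07 to 0.46 for Zeb2 and -0.28 to 0.31 for Fn1, with 0 to 1 genes called. Twist2 (0.17 to 0.96), Prrx1 (0.42 to 1.00), Vim (0.11 to 0.53) and Cdh2 (0.79 to 2.18) kept their sign there. With 10 libraries, Zeb1 had an unadjusted edgeR p under 0.05 without wild-type replicate 1, in a fit where 1576 genes did. With 9 libraries, Snai2 did so without wild-type replicate 1, Cdh2 without replicate 2 and Prrx1 without replicate 4. In these 9-library fits 2125, 1848 and 1651 genes had an unadjusted p under 0.05. No paired analysis was possible because the labels give no replicate number shared between genotypes.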
